A study of Mus musculus with 6 samples.

Results

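Cyclic AMP signalling genes were examined on Affymetrix expression arrays of bone marrow pre-B cells from mice with a blood-cell deletion of Mef2c, a transcription factor gene. The genes were chosen by symbol alone: adenylyl cyclases, cyclic nucleotide phosphodiesterases, protein kinase A subunits, A-kinase anchoring proteins, CREB and CREM factors and CRTC coactivators. Of 17372 genes with a single annotated symbol, 64 matched, and 43 of the 64 had a mean log2 intensity above the level filter (7.26, the 40th percentile of all probe sets). The 43 are among 11271 genes tested. The symbols also took in genes with other roles. These are the AMP-activated kinase subunits, the RNA-degrading enzyme gene Pde12, the centrosomal scaffold gene Pde4dip and Prkag2os1, a transcript opposite to Prkag2. Around the filter, Adcy9 lay just inside with a mean log2 of 7.33 and Akap1 just outside with 7.19.

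The Mef2c-deficient group held 3 arrays from mice carrying Vav-Cre with both Mef2c alleles floxed (Vav-Cre Mef2cfl/fl), and the control group 3 arrays, all from animals aged 9 months. Per the study, controls of the same age were Mef2cfl/fl, Mef2cfl/+ or Vav-Cre Mef2cfl/+ animals. Which of these gave each array is not given in the sources used here, so some control cells may carry Cre. Vav-Cre acts throughout blood cells, not in the B lineage alone. Pre-B cells were sorted as B220+ IgM- CD43- cells. The labels could not be checked by the deleted gene, which was not analysed here. The samples are called independent without naming the animals, so p-values describe only how these samples vary, and having 3 arrays a group limits precision.

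Cyclic AMP is made from ATP by adenylyl cyclases when Gs-coupled receptors are engaged, and is broken down by phosphodiesterases. It binds the regulatory subunits of protein kinase A, which release the catalytic subunits, while anchoring proteins hold the kinase at defined places in the cell. The kinase phosphorylates CREB, and with CRTC coactivators CREB switches on genes with a cyclic AMP response element in their promoters. In lymphocytes a raised cyclic AMP level is known mostly as a brake on antigen receptor signalling and proliferation.

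All values below are log2 of the deposited intensity, and differences are Mef2c-deficient minus control on that scale. It is not settled whether the authors left the log scale with base 2 or with base e. With base e, each difference would be 0.69 times the printed one, with the same sign and p-value. Levels of different genes are not compared, because probe sets differ in brightness. Across the 11271 genes the median log2 difference was -0.36, so a gene at 0 lay above the middle of the array. Pre-B-cell markers were present on every array. Cd79a lay between 18.40 and 18.92 in Mef2c-deficient arrays and between 17.80 and 18.96 in controls, and 10 of 13 listed markers were in the table, all above the filter. Of these 10, 9 had lower means in Mef2c-deficient cells, 4 of them at an unadjusted p under 0.05, with a median log2 difference of -0.96. Of all genes tested, 62.3% had lower means and 20.9% were lower at an unadjusted limma p under 0.05. Among the 3757 brightest genes tested, which include all 10 markers, 26.3% were lower at that p and the median log2 difference was -0.56. Plasmacytoid dendritic cells also carry B220. Of 18 listed markers of these cells 14 were in the table and none was at 0. Their deposited intensities summed to between 541221 and 1323940 in Mef2c-deficient arrays and to between 400183 and 617447 in controls. The median of the 13 above the filter, relative to the control mean, was 0.25, 1.11 and 3.39 in Mef2c-deficient replicates 1 to 3 and -0.64, -0.31 and 0.75 in control replicates 1 to 3. Neutrophil genes were also high in Mef2c-deficient replicate 3, with a median of 4.80 over 7 genes, against -0.01 and -1.38 in replicates 1 and 2 and -0.38, -1.28 and 1.47 in controls. In sorted bulk cells, fewer cells of a type and less RNA per cell cannot be told apart.

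Of the 43 genes as many were higher as were lower at an unadjusted p. Higher at an unadjusted limma p under 0.05 were 6 genes (Prkar1b, Adcy7, Pde4b, Akap3, Adcy5 and Creb5), or 14.0% of the 43, where 5.32% of all genes tested were higher. Lower were also 6 (Akap17b, Akap11, Pde12, Akap10, Pde5a and Creb1), again 14.0%, where 20.9% of all genes were lower. Creb5 had a control mean of 7.12 and Pde5a a Mef2c-deficient mean of 7.13, both below the level filter. Each of these genes was tested only because its other group was high enough to lift the mean of all arrays over the filter. With Benjamini-Hochberg adjustment over all genes, 0 of the 43 passed a limma adjusted p of 0.05, against 0.0177% of all genes, and the smallest value among the 43 was 0.0975. The groups did not overlap in 8 genes that were higher in Mef2c-deficient cells, or 18.6%, against 10.6% of all genes, and in 6 that were lower, or 14.0%, against 27.1%. Lower means were found in 24 of the 43 (55.8%) and in 62.3% of all genes. The median log2 difference of the 43 was -0.41.

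**Figure D1:**
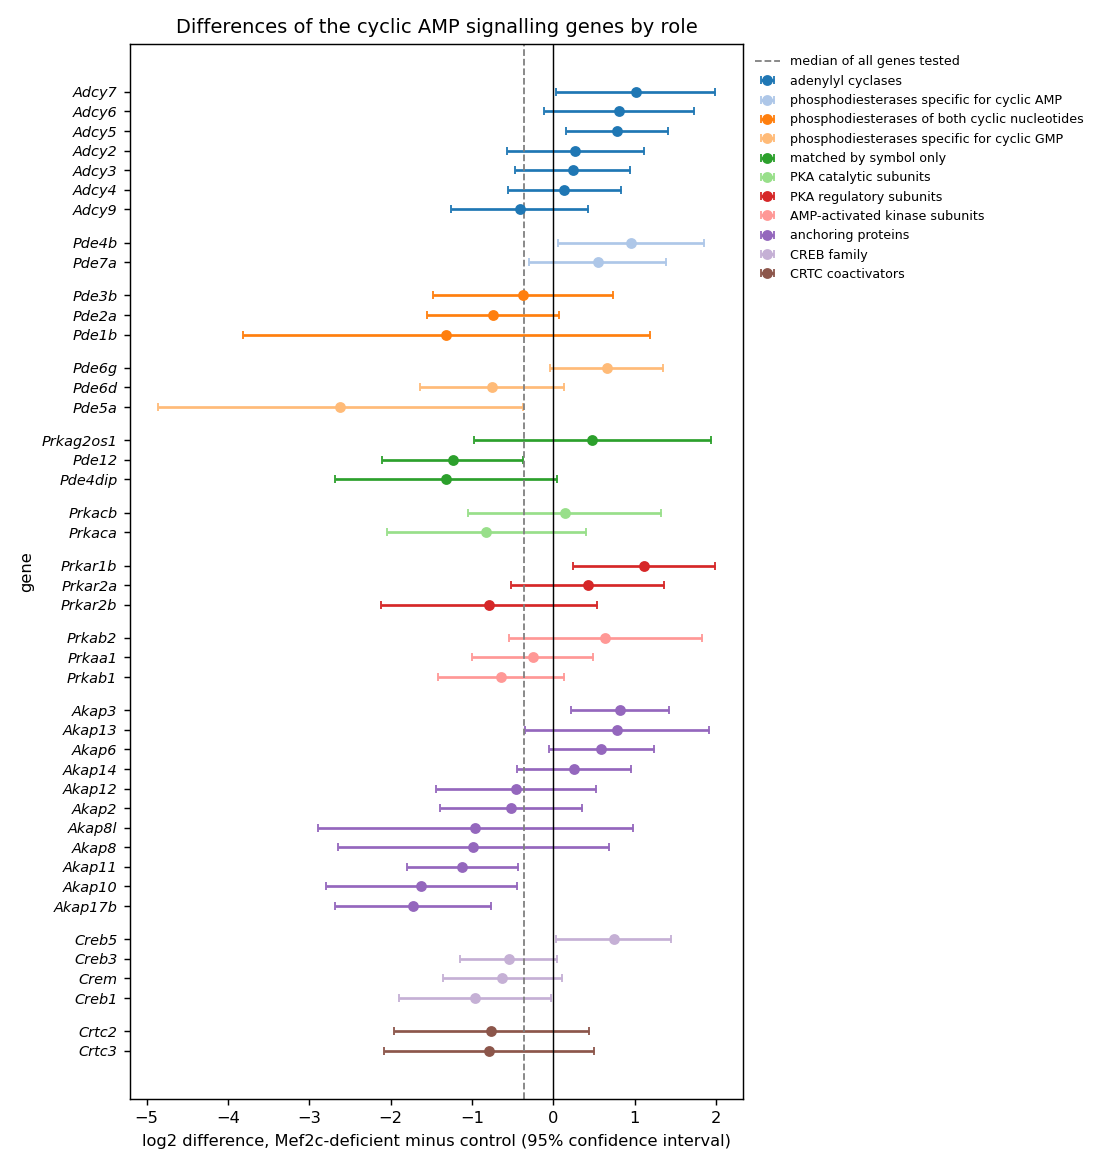
Log2 difference (horizontal axis, Mef2c-deficient minus control) with its 95% confidence interval for each of the 43 genes (vertical axis), coloured by role; the dashed line is the median of all genes tested, -0.36. Prkar1b had the highest difference, 1.12, and Pde5a the lowest, -2.62.

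These shares depended on how bright a gene was and on the scaling of the arrays. The bioB hybridisation control, a bacterial spike, was 2.63, 1.54 and 1.07 above the control mean in Mef2c-deficient replicates 1 to 3 and between -0.17 and 0.15 in controls, and its part in the shift was not tested. When all genes tested were split by mean level into 3 bins of 3757, the median of the dimmest bin was 0.26, and 366 genes (9.74%) were higher and 377 lower at an unadjusted p under 0.05. In the brightest bin it was -0.56, with 1.92% higher and 26.3% lower. Of the 43 genes 18 lay in the dimmest bin (3 higher and 2 lower), 10 in the middle bin (1 higher and 3 lower) and 15 in the brightest bin (2 higher and 1 lower). Prkar1b, Adcy5 and Creb5 were the higher genes of the dimmest bin, and Adcy7 and Pde4b those of the brightest. Akap3 was the higher gene of the middle bin but lay at its lower edge, at percentile 33.4 of the levels tested. After quantile normalization the median of all genes was -0.10, with 7 of the 43 higher (16.3%, against 7.22% of all genes) and 4 lower (9.30%, against 11.1%). Centring each array on the kept probe sets gave 10 higher (23.3%, against 14.0%) and 5 lower (11.6%, against 10.7%).

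**Figure D2:**
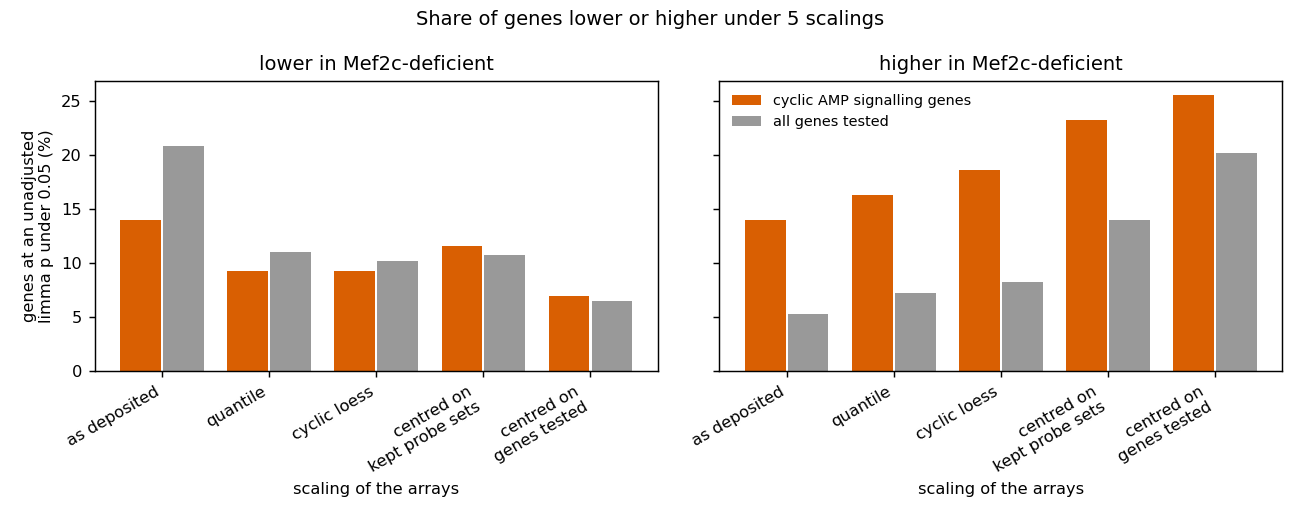
Percentage of genes at an unadjusted limma p under 0.05 (vertical axis), lower (left) or higher (right) in Mef2c-deficient cells, for the 43 cyclic AMP signalling genes (orange) and all 11271 genes tested (grey) under 5 scalings of the arrays (horizontal axis). As deposited, 14.0% of the 43 were higher, against 5.32% of all genes.

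Adenylyl cyclases, the enzymes that make cyclic AMP, had higher means in 6 of the 7 genes measured, with a median log2 difference of 0.27. Of all genes tested 62.3% had lower means. Adcy2, Adcy4, Adcy5, Adcy6 and Adcy9 lay in the dimmest bin, however, where the median of all genes was 0.26, close to that of the cyclases. Adcy6 had a control mean of 7.21 and Adcy9 a Mef2c-deficient mean of 7.13, both below the level filter. Each was tested, and counted here, only because its other group lifted the mean of all arrays over the filter. Adcy7, the cyclase known as the main form in lymphocytes, lay at 12.93, 14.27 and 12.93 in Mef2c-deficient replicates 1 to 3 and at 12.29, 12.59 and 12.21 in control replicates 1 to 3. All Mef2c-deficient arrays were above all control arrays, and replicate 2 stood highest. Adcy7 thus differed by 1.01 on the log2 scale (SE 0.42), with an unadjusted limma p of 0.0440 and an adjusted p of 0.180. This is 2.02-fold with base 2, and with base e the difference would be 0.70. Without replicate 3 the log2 difference was 1.24. Without replicate 2 it was 0.57, with an unadjusted limma p of 0.107, and the p stayed under 0.05 in 2 of the 6 fits that leave out 1 array. Dendritic cell markers were highest in replicate 3 and also raised in replicate 2 (median 1.11), and their part in Adcy7 was not tested.

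Adcy5, a form best known from heart and striatum, gave 9.29, 9.37 and 9.21 in Mef2c-deficient arrays and 8.33, 8.74 and 8.46 in controls. These groups also did not overlap (log2 difference 0.78, SE 0.27, limma adjusted p = 0.145). Its probe set carries the suffix _x_at, which marks probes that can match other transcripts. Adcy6 had a difference of 0.81 (SE 0.39), with Mef2c-deficient replicate 3 at 7.31 inside the control range of 6.86 to 7.39. The other cyclases lay between -0.41 for Adcy9 and 0.27 for Adcy2. The confidence interval of Adcy9 ran from -1.26 to 0.43.

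Phosphodiesterases, which end the signal, are grouped by substrate. Both measured forms specific for cyclic AMP had higher means, where 62.3% of all genes tested had lower means. Pde4b, the form that limits cyclic AMP in stimulated leukocytes, lay at 12.89, 13.62 and 12.94 in Mef2c-deficient arrays and at 12.68, 12.31 and 11.59 in controls. The groups did not overlap, though the lowest Mef2c-deficient array was only just above control replicate 1. Pde4b differed by 0.96 on the log2 scale (SE 0.38, limma adjusted p = 0.174). Pde7a, another lymphocyte form, gave 14.01, 14.79 and 14.05 against 13.36, 13.64 and 14.21 in controls, a difference of 0.55 (SE 0.36). Here control replicate 3 lay above 2 Mef2c-deficient arrays.

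The 3 measured forms that split both cyclic AMP and cyclic GMP had lower means. Pde2a, which cyclic GMP activates, lay at 13.66, 13 and 12.68 in Mef2c-deficient arrays and at 14.04, 13.53 and 14.00 in controls. Its log2 difference was -0.74 (SE 0.35, limma adjusted p = 0.214), and replicate 1 overlapped the controls. Pde3b, the form that insulin activates in fat cells, differed by -0.37 (SE 0.48). Pde1b, which calcium and calmodulin activate, gave 11.21, 10.96 and 6.91 against 11.50, 11.06 and 10.46. Its difference of -1.32 (SE 1.07) came with replicate 3 alone far below the other 5 arrays.

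Pde5a, which splits cyclic GMP and is the target of sildenafil, had the lowest difference of all 43 genes. On its brighter probe set it lay at 5.57, 6.29 and 9.54 in Mef2c-deficient arrays and at 9.12, 9.83 and 10.30 in controls. Replicates 1 and 2 were far below every control, while replicate 3 lay within the control range. The log2 difference was -2.62 (SE 0.96, limma adjusted p = 0.156), and without Mef2c-deficient replicate 3 it was -3.82 (limma adjusted p = 0.0453). Without replicate 1 it was -1.84 and without replicate 2 it was -2.20, with unadjusted limma p-values of 0.0929 and 0.0902.

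Pde5a is also measured by a dimmer probe set, again one with the suffix _x_at. It gave 6.74, 6.21 and 6.56 in Mef2c-deficient arrays and 8.71, 8.66 and 8.33 in controls. Here all 3 Mef2c-deficient arrays were below all controls, replicate 3 included. The log2 difference was -2.07 (SE 0.29), with an adjusted p of 0.0737 in a limma fit of all 11442 kept probe sets with a single symbol. The Mef2c-deficient mean of this probe set, 6.50, was again below the level filter. It was kept and tested only because its control mean, 8.57, lifted the mean of all arrays over the filter. With the mean of both probe sets the difference was -2.34 (limma adjusted p = 0.0927). Pde5a is the single gene of the 43 with more than 1 kept probe set. Of the subunits of the photoreceptor enzyme, Pde6d, which also carries prenylated proteins, differed by -0.75 (SE 0.38) and the inhibitory Pde6g by 0.66 (SE 0.30). The groups did not overlap for Pde6g.

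Among the genes matched by symbol only, Pde12, which trims poly(A) tails of mitochondrial RNA, lay at 10.88, 11.46 and 10.51 in Mef2c-deficient arrays and at 12.36, 12.51 and 11.69 in controls. The groups did not overlap, and the log2 difference was -1.24 (SE 0.37, limma adjusted p = 0.125). Pde4dip differed by -1.31 (SE 0.58), with Mef2c-deficient replicate 2 at the control level (9.72, against 9.59 to 9.78 in controls). With replicate number as a block its unadjusted limma p was under 0.05.

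Protein kinase A is made of catalytic and regulatory subunits. Neither catalytic subunit gene reached an unadjusted p of 0.05. Prkaca gave 9.22, 9.58 and 10.53 in Mef2c-deficient arrays and 10.42, 9.85 and 11.53 in controls, a log2 difference of -0.82 (95% confidence interval -2.04 to 0.40, limma adjusted p = 0.307). In both groups replicate 3 was the highest array, and a fit with replicate number as a block gave Prkaca an unadjusted limma p of 0.0450. Without control replicate 3 its difference was -0.36, with an unadjusted limma p of 0.485. Prkacb differed by 0.14 (95% confidence interval -1.04 to 1.33).

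Of the regulatory subunits, Prkar1b, a type I form known mostly from brain, lay at 10.22, 9.53 and 9.07 in Mef2c-deficient arrays and at 8.69, 8.13 and 8.66 in controls. Every Mef2c-deficient array was above every control array. Prkar1b differed by 1.12 on the log2 scale (SE 0.37; limma adjusted p = 0.140). This is 2.17-fold with base 2, and with base e the difference would be 0.77. The Prkar1b probe set has the suffix _s_at, which marks probes shared by several transcripts. Without probe sets of the suffixes _x_at and _s_at, 36 of the 43 genes could be tested. Prkar1b, Adcy5, Adcy3, Adcy9, Prkaca, Prkar2b and Crtc2 could not, since each rests on such a probe set alone. The type II forms went in opposite directions, with Prkar2a at 0.42 (SE 0.40) and Prkar2b at -0.79 (SE 0.57), and their groups overlapped. Prkar1a, the widely expressed type I form, was represented in the table by a single dim probe set with a mean log2 of 4.33 and was not tested.

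The AMP-activated kinase, which senses AMP and not cyclic AMP, had 3 subunit genes above the filter. Prkab1 gave 11.81, 12.53 and 12.08 in Mef2c-deficient arrays and 12.94, 12.37 and 13.04 in controls, so that replicate 2 overlapped the controls. Its log2 difference was -0.64 (SE 0.33, limma adjusted p = 0.240). Prkab2 differed by 0.64 (SE 0.51) and the catalytic Prkaa1 by -0.25 (SE 0.32). Of 7 measured genes that act on or with this kinase, 1 was lower at an unadjusted limma p under 0.05. Of all genes tested 20.9% were, so a single lower gene does not set this list apart. The gene was Camkk2, an activating kinase, with a difference of -1.03 (SE 0.35, limma adjusted p = 0.142).

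Anchoring proteins formed the largest class, with 11 genes measured, of which 7 had lower means, where 62.3% of all genes tested did. Akap17b had the smallest p-value of the 43 genes. It lay at 10.41, 10.06 and 8.96 in Mef2c-deficient arrays and at 11.50, 11.40 and 11.69 in controls. The groups were clearly apart, with replicate 3 lowest. Its log2 difference was -1.72 (SE 0.41), with an unadjusted limma p of 0.00349 and an adjusted p of 0.0975.

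Akap11, which binds protein phosphatase 1 and glycogen synthase kinase 3 beside protein kinase A, gave 9.83, 10.14 and 10.47 in Mef2c-deficient arrays and 11.28, 11.12 and 11.41 in controls. The spread within each group was smaller than the gap between them (log2 difference -1.12, SE 0.29, limma adjusted p = 0.108). Akap10, an anchor found at mitochondria and endosomes, lay at 8.21, 8.20 and 6.54, against 9.15, 8.96 and 9.71 in controls. Its log2 difference was -1.62 (SE 0.50, limma adjusted p = 0.130), with replicate 3 lowest, and it was -1.07 without that array. The unadjusted limma p stayed under 0.05 with each array left out in turn for Akap17b, Akap11 and Pde12. After quantile normalization, however, Pde12 was at -0.78 with an unadjusted limma p of 0.0810, and with centring on the genes tested Akap11 was at -0.66 with an unadjusted limma p of 0.0578. Of the 6 fits that leave out 1 array, the p was under 0.05 in 5 for Akap10 and Akap3, 4 for Prkar1b, 3 for Adcy5 and Pde4b, 2 for Adcy7, Pde5a and Creb5, and 1 for Creb1.

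Akap3, known from the sperm fibrous sheath, went the other way. It gave 9.65, 9.56 and 9.67 in Mef2c-deficient arrays and 8.90, 8.64 and 8.88 in controls, without overlap (log2 difference 0.82, SE 0.26, limma adjusted p = 0.133). Akap6, the anchor at the nuclear envelope of muscle cells, was also without overlap, at 0.59 (SE 0.28). Akap12, which encodes gravin, was at 18.26, 17.51 and 16.76 against 18.20, 18.09 and 17.61, a difference of -0.46 (SE 0.42). The nuclear anchors Akap8 and Akap8l had differences of -0.98 (SE 0.71) and -0.96 (SE 0.83). Of these, Akap8l lay at 12.02, 12.59 and 9.12 in Mef2c-deficient arrays, so that replicate 3 alone was below the controls (12.01 to 12.39). Of the remaining anchors, Akap13 was at 0.78 (SE 0.48), Akap14 at 0.25 (SE 0.30) and Akap2 at -0.52 (SE 0.37).

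Mef2c-deficient replicate 3 was the lowest of the 6 arrays in 15 of the 43 genes, where it was the lowest in 28.7% of all genes tested. Its marker levels for other cell types and those of the genes above were measured on the same array, and their part in these results was not tested. Without this array the median log2 difference of the 43 genes was -0.10, in place of -0.41, while 6 were still higher and 6 lower at an unadjusted limma p under 0.05. Of all genes 7.07% were higher and 23.7% lower in that fit. Of the 12 genes called with all arrays, 10 were called without replicate 3. The exceptions were Creb1, at -0.62, and Creb5, at 0.52.

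**Figure D3:**
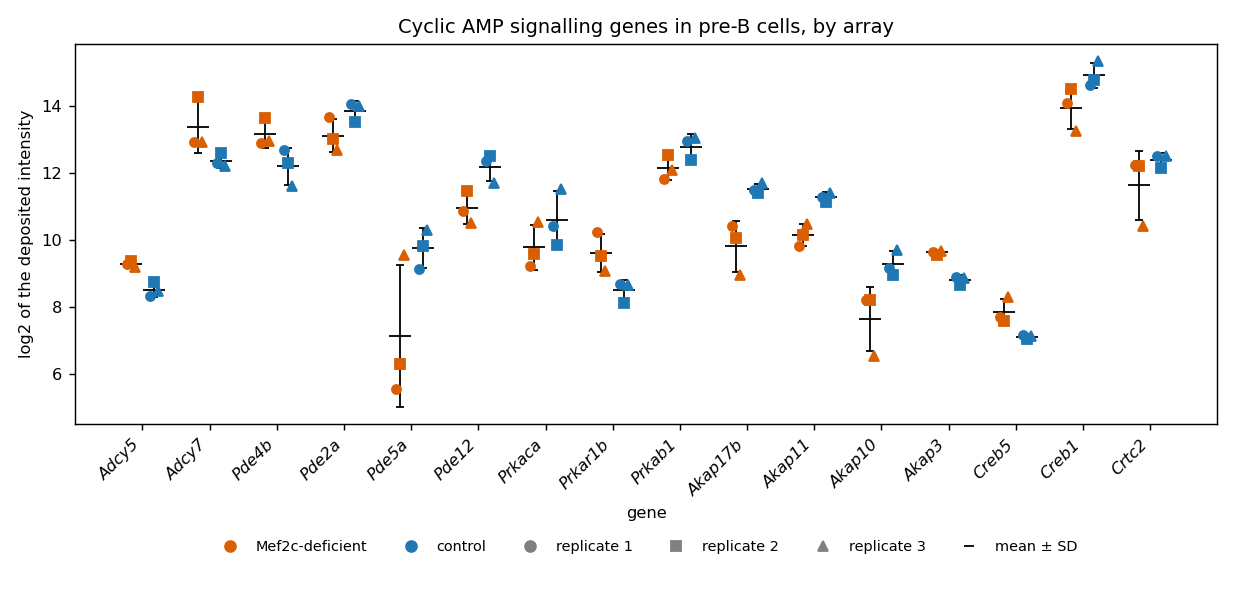
Log2 of the deposited intensity (vertical axis) of 16 genes chosen by p-value within their role (horizontal axis), in 3 Mef2c-deficient (orange) and 3 control arrays (blue), with a symbol for each replicate and the mean and SD of each group. Akap11 lay between 9.83 and 10.47 in Mef2c-deficient arrays, below the controls, and Pde5a at 9.54 in replicate 3 within the control range.

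The CREB family takes in CREB, the transcription factor at the end of the pathway, and relatives matched by symbol. Creb1, the ubiquitous form, lay at 14.09, 14.50 and 13.24 in Mef2c-deficient arrays and at 14.62, 14.78 and 15.33 in controls. All Mef2c-deficient arrays were below all controls, with replicate 2 close to control replicate 1. The log2 difference was -0.97 (SE 0.40, limma adjusted p = 0.181). It had an unadjusted limma p under 0.05 in 7 of the 19 alternatives run, and a block for replicate number gave it an unadjusted p of 0.0608.

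Creb3, a membrane-bound factor cut free by proteolysis, gave 11.74, 11.90 and 11.84 in Mef2c-deficient arrays and 12.31, 12.43 and 12.40 in controls. These groups were tight and did not overlap (log2 difference -0.55, SE 0.25, limma adjusted p = 0.210). Crem, which makes activators and a cyclic AMP-induced repressor, differed by -0.62 (SE 0.31), with replicate 2 at the lowest control value (9.18). Creb5 went the other way, at 7.69, 7.57 and 8.31 in Mef2c-deficient arrays against 7.16, 7.06 and 7.13 in controls. The groups did not overlap (log2 difference 0.74, SE 0.30, limma adjusted p = 0.176), but a block for replicate number gave an unadjusted limma p of 0.0547. Its probe set lies at percentile 3.97 of the levels tested, among dim genes, and a dimmer one below the filter differed by 0.05.

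CRTC coactivators enter the nucleus when cyclic AMP or calcium rises and bind CREB. Crtc2 lay at 12.24, 12.21 and 10.43 in Mef2c-deficient arrays and at 12.51, 12.15 and 12.51 in controls. Replicates 1 and 2 fell among the controls and replicate 3 below them, and the log2 difference was -0.76 (SE 0.51, limma adjusted p = 0.327). Without replicate 3 the difference was -0.16. Crtc3 differed by -0.80 (SE 0.55), and its groups overlapped.

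Promoters of the 12 genes called at an unadjusted p were searched for the cyclic AMP response element, the sequence that CREB binds, since this is the DNA site the pathway acts on. The windows run from 250 bases before to 50 bases after each RefSeq start site (GRCm38.p6). The full element TGACGTCA was in a window of Creb5 alone among the 12, and in 2.03% of 27025 genes. Its 5-letter core TGACG, searched like the element on both strands (CGTCA on the other) and contained in it, was in 5 of the 12 (41.7%) and in 23.0% of all genes. Among the 35 tested members with a window, 11 held the core (31.4%). The 5 genes follow with the motif in capitals, 1 site each, 5′ to 3′ on the strand of the gene. The window of Akap11 holds 3 core sites, at -129, -136 and -221, and the last is shown because the others overlap in the printed stretch. A match is a description of the letters and not a bound site.
Creb5 (chr6:53287250-53287273, plus strand): atcccacgTGACGTCAccgggggg
Pde4b (chr4:102421513-102421533, plus strand): tggctgcaCGTCAattttctc
Adcy7 (chr8:88282956-88282976, plus strand): catagagcCGTCAggggggtg
Prkar1b (chr5:139150038-139150058, minus strand): gggcggagTGACGggcaggag
Akap11 (chr14:78537069-78537089, minus strand): gcgcaagaCGTCAgccgagag
These sites start at positions -45, -34, -28, -49 and -221 from the annotated start of each gene, in the order shown. The genes with a core were Creb5, Pde4b, Adcy7 and Prkar1b, higher in Mef2c-deficient cells, and Akap11, lower. No window of the 52 members with one held the MEF2 consensus, which was in 0.636% of all genes. Absence says only that these letters are not in the windows.

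Other genes of the pathway, outside the symbol rule, were read from lists, whose counts stand beside the 5.32% of all genes tested that were higher and the 20.9% that were lower. Rapgef3, the cyclic AMP-activated exchange factor for Rap, fell in Mef2c-deficient cells, at 9.93, 9.77 and 10.45 against 13.45, 13.94 and 13.60 in controls. It was the single gene of these lists past an adjusted threshold (log2 difference -3.61, SE 0.31, limma adjusted p = 0.0258). The call ended with replicate number as a block (limma adjusted p = 0.0685), after quantile normalization (0.122), cyclic loess (0.124), centring on kept probe sets (0.0629) or on the genes tested (0.0981), in the methods' test (0.101), and without control replicates 1 (0.257), 2 (0.223) or 3 (0.272) or Mef2c-deficient replicate 2 (0.100). The log2 difference itself lay between -3.81 and -3.09 in all 19 alternatives run. Pkib, an inhibitor of the catalytic subunit of protein kinase A, lay at 9.95, 9.66 and 12.41 in Mef2c-deficient arrays and at 7.73, 7.30 and 8.93 in controls. The groups did not overlap, and the log2 difference was 2.69 (SE 0.77, limma adjusted p = 0.118). Replicate 3 was the highest array in both groups, as it was for the dendritic cell markers, and without Mef2c-deficient replicate 3 the difference was 1.82. The part of such cells in Pkib was not tested. Arpp21, a cyclic AMP-regulated phosphoprotein, differed by -0.97 (SE 0.38). The other 4 genes measured in this list, on effectors, inhibitors and transport, did not reach an unadjusted p of 0.05.

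Upstream, 5 of 20 listed Gs-coupled receptor genes were above the filter, and 1 of them passed an unadjusted p of 0.05. This was Gpr174, a lysophosphatidylserine receptor of lymphocytes, at 8.35, 10.88 and 9.90 in Mef2c-deficient arrays and 6.60, 7.32 and 8.36 in controls. Mef2c-deficient replicate 1 lay just below control replicate 3, so that the groups overlapped (log2 difference 2.29, SE 0.70, limma adjusted p = 0.129). Ptger4, the prostaglandin E2 receptor gene, differed by -0.66 (SE 0.32). Of 6 measured G protein subunit genes 1 was lower and 1 higher. Gnai3, an alpha subunit that inhibits cyclases, gave 6.88, 7.18 and 8.14 against 8.52, 8.89 and 8.77 in controls, without overlap (log2 difference -1.33, SE 0.38, limma adjusted p = 0.118). Its probe set carries the suffix _x_at, so its probes can match other transcripts. Gng2, a gamma subunit, gave 14.05, 13.70 and 14.38 against 13.15, 12.82 and 13.25 (log2 difference 0.97, SE 0.30, limma adjusted p = 0.133). Gnas, the stimulatory alpha subunit gene, was below the filter on its single probe set and was not tested.

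Downstream, 2 of 11 measured CREB partners and CRTC kinases passed an unadjusted p of 0.05, both lower, a share near that of all genes. Sik3, a kinase that keeps CRTC proteins in the cytoplasm, differed by -0.95 (SE 0.34), and Ppp3cb, a catalytic subunit of calcineurin, which has the opposite action on them, by -0.99 (SE 0.36). Both were without overlap between groups. Of 14 measured genes known as CREB targets 1 was lower (Ppargc1a, a metabolic coactivator, -1.02, SE 0.33) and 1 higher (Nr4a2, an orphan nuclear receptor, 0.87, SE 0.33). The median log2 difference of the 14 was 0.03.

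Several of these targets instead followed the replicate number. They were singled out after their values were seen. Fos lay at 17.50, 18.32 and 9.58 in Mef2c-deficient replicates 1 to 3 and at 18.05, 17.56 and 9.00 in control replicates 1 to 3. Fosb gave 14.81, 15.98 and 5.42 against 14.84, 14.44 and 4.73, and Dusp1 gave 17.01, 18.05 and 11.31 against 16.84, 16.55 and 11.75. In all 3 genes replicate 3 of each group was far below the other 4 arrays, and the differences between groups were small beside this gap (0.26, SE 2.97, for Fos). What the replicate number stands for is not given in the sources used here.

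**Figure D4:**
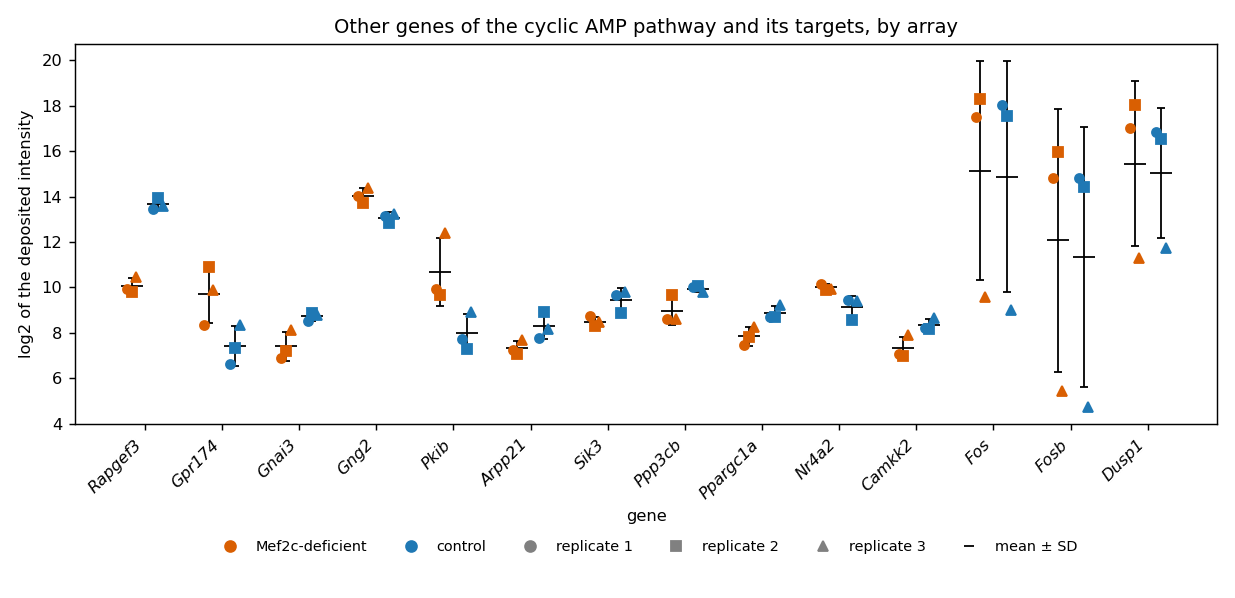
Log2 of the deposited intensity (vertical axis) of 14 other genes of the pathway and its targets (horizontal axis) in 3 Mef2c-deficient (orange) and 3 control arrays (blue), with a symbol for each replicate and the mean and SD of each group. Rapgef3 lay between 9.77 and 10.45 in Mef2c-deficient arrays, below every control, while Fos, Fosb and Dusp1 were low in replicate 3 of both groups.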

How the data were processed

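RNA of sorted pre-B cells was hybridised to Affymetrix mouse arrays. The authors deposited a linear intensity for each probe set and array, and their methods name robust multiarray averaging with background adjustment and quantile normalization. The deposited arrays do not share a median (277 to 285 in Mef2c-deficient and 236 to 268 in control arrays), so they are not on a common quantile scale as they stand. The base used to leave the log scale is not stated. The highest value is 21.03 as log2 and 14.58 as a natural log, and 2.00% of values exceed 65535, the limit of a 16-bit scanner. Of the probe sets 17689 have 1 symbol in the platform annotation and 524 several, and 5699 are unnamed here. Symbols were checked by gene identifier in a RefSeq table (17538 matched, 0 changed). Some genes, Mef2c among them, were not analysed here.

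No offset was added before taking log2. Probe sets with a single symbol and a mean log2 over the 40th percentile were kept, and a gene was represented by its brightest probe set. Mef2c-deficient and control arrays were compared in limma 3.58.1 under R 4.3.3 (group as the only term, default eBayes, two-sided, Benjamini-Hochberg over 11271 genes), after a check on simulated data. Genes were followed through the alternatives if, within their role, their unadjusted p was under 0.05 (up to 4 per role), or if it was the smallest where none was; in the other lists, up to 3 genes under 0.05. Other genes given by array, such as Pde7a, Pde1b, Akap12, Akap8l and Creb3, were chosen after their values were seen. The members and lists were chosen with earlier results of these data known.

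Deviations from the group means correlated across genes between same-numbered arrays of both groups (0.348, 0.226 and 0.373) and less between other pairs (-0.309 to 0.129). The pairing rests on these correlations and on the shared numbers alone. Deviations cancel out within each group, so positive values for same-numbered arrays by themselves lower the other pairs. The contrast between them is thus partly built in. Alternatives were no filter or a 60th percentile filter, quantile, cyclic loess and median scaling, an offset of 16, the mean of kept probe sets, no _x_at or _s_at probe sets, a trended robust eBayes, array weights, the methods' t-test, a block for replicate number, and leaving out each array. Centring on the genes tested was added after the data were seen.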

Additional observations from a re-analysis of the deposited data

How the results depend on the processing

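Directions held for all 27 genes followed through the alternatives, 16 members and 11 others, in all 498 values, but sizes, the counts and the median of the 43 members moved. Over the scalings, Pde2a (-0.74) lay between -0.45 and -0.20, Prkab1 (-0.64) between -0.35 and -0.09, Crtc2 (-0.76) between -0.47 and -0.23, Creb1 (-0.97) between -0.67 and -0.47, and Pde12 (-1.24) between -0.94 and -0.73. Higher at an unadjusted limma p under 0.05 were 6 members. With no filter 11 were (17.2%, against 8.32% of all genes). Centring each array on the kept probe sets gave 10 (23.3%, against 14.0%), and centring on the genes tested gave 11 (25.6%, against 20.2%). With an array left out 2 to 6 were higher. Without control replicate 2 or control replicate 3 there were 2 (4.65%, against 3.03% and 2.90%). Without control replicate 1 there were 3 (6.98%, against 2.12%). Lower were 6, against 3 with centring on the genes tested (6.98%, against 6.48% of all genes). With an array left out 3 to 9 were lower. Without control replicate 3 there were 3 (6.98%, against 12.6%), and without Mef2c-deficient replicate 2 there were 9 (20.9%, against 21.7%). Past a limma adjusted p of 0.05 were 0 members, against 4 with array weights (Akap17b 0.0276, Akap11 0.0315, Pde5a 0.0319 and Pde12 0.0425, where 1154 of all genes passed) and 0 to 1 with an array left out (Pde5a without Mef2c-deficient replicate 3, where 159 passed). The median log2 difference of -0.41 was 0.12 with no filter, -0.59 with the 60th percentile filter, -0.068 after quantile normalization, -0.041 after cyclic loess, -0.12 with centring on kept probe sets, 0.049 with centring on the genes tested, -0.25 with array weights, and between -0.48 and -0.10 with an array left out. With no filter 64 members were tested, and with the higher filter 30. Relative to the median of all genes, the members' median lay between -0.20 (without Mef2c-deficient replicate 1) and 0.22 (without Mef2c-deficient replicate 3). The causes were not tested. With the replicate number as a block, 8 members were lower (18.6%, against 23.1% of all genes) at an unadjusted limma p under 0.05. Higher in that fit were 6 (14.0%, against 6.72%), and 0 passed adjustment. Creb1 and Creb5 were no longer under 0.05, and Akap13, Pde4dip, Pde6d and Prkaca were newly so. Of the calls after adjustment only that of Rapgef3 changed among the genes followed. The methods' t-test gave 4 lower (9.30%, against 16.9% of all genes) and 6 higher (14.0%, against 5.69%), and 0 after adjustment. Adcy7, Pde4b, Pde5a, Akap10 and Creb1 were not among its calls. With 3 arrays a group, differences smaller than about the confidence intervals shown could not be detected.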

Other observations

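The 21 members below the level filter were not tested. They were Adcy1, Adcy10, Pde1c, Pde3a, Pde6a, Pde6b, Pde6c, Pde6h, Pde7b, Pde8b, Pde9a, Pde10a, Pde11a, Prkar1a, Prkaa2, Prkag2, Prkag3, Akap1, Akap4, Akap5 and Akap7. Their median log2 difference was 0.36, and the groups did not overlap in 8 that were higher and 2 that were lower in Mef2c-deficient cells, or 38.1% and 9.52%. Among all 6101 genes below the filter, these shares were 25.5% and 3.23%, and the median was 0.37. Akap4, another sperm fibrous sheath anchor, lay at 6.81, 5.29 and 4.13 in Mef2c-deficient arrays and at 3.31, 3.84 and 3.74 in controls. Prkag2, a regulatory subunit of the AMP-activated kinase, gave 6.87, 6.24 and 7.79, against 6.11, 5.92 and 5.52 in controls. Pde8b, a phosphodiesterase specific for cyclic AMP, gave 6.89, 6.44 and 6.42, against 5.55, 5.77 and 5.94. Akap1, an anchor at the outer mitochondrial membrane, lay at 7.37, 6.88 and 5.77, against 7.49, 7.57 and 8.09.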
